A study of Rattus norvegicus with 18 samples.

Results

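The Reelin pathway loci were examined through the CpGs within 50 kb on either side of 1 named CpG in Reln and 1 in Dab1. The Reln window spans rn6 chr4:9407439-9507439 and the Dab1 window rn6 chr5:124207817-124307817. The minus strand cytosine of the named CpG is at 9457440 in Reln and at 124257818 in Dab1, and the plus strand cytosine lies 1 base before it. These windows held 130 CpGs with at least 10 reads on a cytosine in at least 1 striatum, 82 around Reln and 48 around Dab1, of 1451601 such CpGs in the whole data set. Both positions had been chosen from the comparisons of the treated rats with the untreated ones. Their values in those comparisons are therefore given as a description, and nothing is supported with them. The study annotated sites as promoter, exon, intron or intergenic. Its table lists Reln and Dab1 for these positions in the gene column marked i, read here as intron, with the columns marked e and p empty, and no annotation of rn6 was used here to check this.

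DNA methylation was measured by reduced representation bisulfite sequencing (RRBS), in which DNA is cut with MspI and unmethylated cytosines are converted and read as thymine. Both striata of 9 juvenile male Wistar rats were used, 3 rats in each of 3 groups. All rats had received 6-hydroxydopamine, a toxin of dopaminergic neurons, in the medial forebrain bundle of one hemisphere on postnatal day (PND) 21, so the opposite striatum of the same animal is the control side and no unlesioned animal is among the groups. From PND 35 to PND 49, and a last time on PND 53, the UNT rats received saline, the L-DOPA rats L-DOPA, the precursor of dopamine, and the L-DOPA + R rats L-DOPA together with Riluzole, which reduces glutamate release. L-DOPA was given at 6 mg/kg with 15 mg/kg benserazide, and Riluzole at 6 mg/kg. The striatum was taken as bulk tissue, in which a shift in the mix of cells and a change within the cells cannot be told apart.

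Reelin is a large secreted glycoprotein that guides the placement of neurons in the developing brain and acts on dendrites and synapses in the adult brain. It binds to the receptors Vldlr and Lrp8 (ApoER2), upon which the intracellular adaptor Dab1 is phosphorylated on tyrosines by the kinases Fyn and Src. Phosphorylated Dab1 passes the signal to Crk proteins, to phosphoinositide 3-kinase and to the cytoskeleton, and is then degraded. Reln codes for the ligand, and Dab1 for the adaptor.

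The libraries held 30288745 to 49113957 CpG calls per striatum in UNT, 18471279 to 30764504 in the L-DOPA rats and 19383285 to 25846139 in the L-DOPA + R rats. Treatment and depth moved together in this way, and by the design their parts in the results cannot be told apart. The unmethylated spike-in was read as methylated in 0.301 to 0.929% of calls, and the methylated one in 98.1 to 98.7%.

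In the Reln window the named CpG was almost completely methylated in UNT rats and lower in both treated groups. With the reads of both strands and both striata of a rat added up, its methylation level was 98.3 ± 2.11% in UNT (SD, n = 3 rats), 72.0 ± 14.8% under L-DOPA and 63.0 ± 10.3% under L-DOPA + R. The UNT rats had 95.9, 100 and 98.9%, the L-DOPA rats 56.3, 85.7 and 74.1%, and the L-DOPA + R rats 67.7, 51.2 and 70.0%. No treated rat reached the UNT range, whereas the ranges of the 2 treated groups overlapped.

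The lower level came from one strand. On the plus strand the cytosine was methylated in 98.4 ± 1.73% of reads in UNT, 98.0 ± 3.50% under L-DOPA and 95.6 ± 4.80% under L-DOPA + R (SD over rats), from 213, 104 and 113 reads. On the minus strand the cytosine at 9457440 was methylated in 95.6 ± 7.70% of 56 UNT reads, 42.0 ± 24.4% of 100 L-DOPA reads and 21.7 ± 10.3% of 102 L-DOPA + R reads. The difference between the strands of a rat was 2.82 ± 6.16 points in UNT, 56.0 ± 23.1 points under L-DOPA and 73.9 ± 6.27 points under L-DOPA + R.

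In single striata, the minus strand of the UNT rats 1, 2 and 3 had 3 of 4, 15 of 15 and 18 of 18 reads methylated on the control side. On the lesioned side of the same rats it was 10 of 11, 3 of 3 and 5 of 5. In the L-DOPA rats 6 of 26, 7 of 12 and 2 of 16 reads were methylated on the control side and 8 of 21, 14 of 18 and 4 of 7 on the lesioned side. The L-DOPA + R rats had 1 of 9, 4 of 22 and 4 of 14 methylated reads on the control side and 3 of 13, 2 of 22 and 8 of 22 on the lesioned side. The lowest UNT striatum, at 75%, rested on 4 reads (95% Wilson interval 30.1 to 95.4%, counting error only). The lesioned striatum of L-DOPA rat 2, at 77.8% of 18 reads (54.8 to 91.0%), was the only treated one above it.

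**Figure D1:**
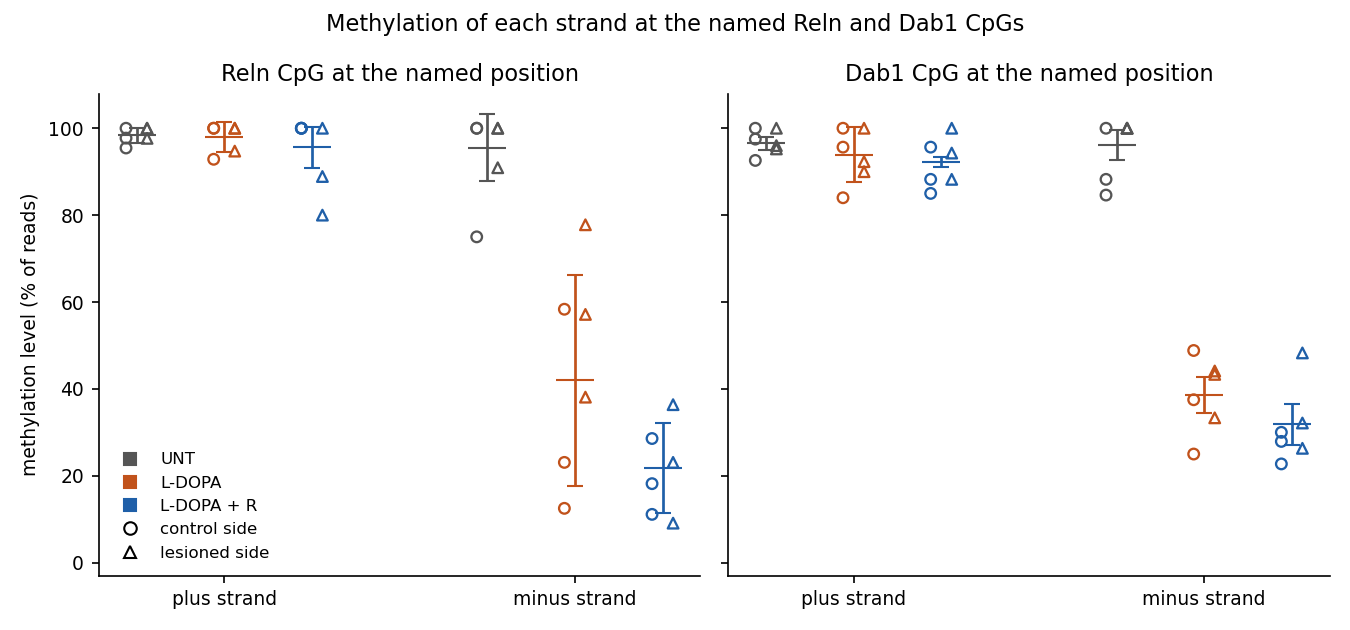
Methylation level (percent of reads, all reads) of the plus and the minus strand cytosine at the named Reln and Dab1 CpGs. Each symbol is a striatum (circle, control side; triangle, lesioned side), and the bars are the mean ± SD of 3 rats. The plus strand was at 80% or more in all 18 striata at both CpGs, and the minus strand lay between 9.09 and 77.8% in the treated striata.

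The number of minus strand reads at the Reln cytosine differed between the groups as well. Per 1000000 calls of a group it was 0.245 in UNT, 0.700 under L-DOPA and 0.748 under L-DOPA + R, against 0.930, 0.728 and 0.828 on the plus strand. The next CpG in the reading direction of this strand lies 9 bases further on, with its minus strand cytosine at 9457431, and was used for comparison. In each of the 6 UNT striata both cytosines had the same number of reads, 56 in all. In L-DOPA the named cytosine had 100 reads and its neighbour 41, and the group totals differed by 59 reads in all and 1 methylated read. In L-DOPA + R the numbers were 102 and 17, a difference of 85 reads in all and 6 methylated ones. The neighbouring cytosine itself was methylated in 94.6% of its reads in UNT, 97.6% under L-DOPA and 94.1% under L-DOPA + R. In each of the 12 treated striata the unmethylated reads at the named cytosine outnumbered those at its neighbour, by 3 to 20. The deposited counts do not follow single reads, and the part of these additional reads in the group difference was not tested.

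**Figure D2:**
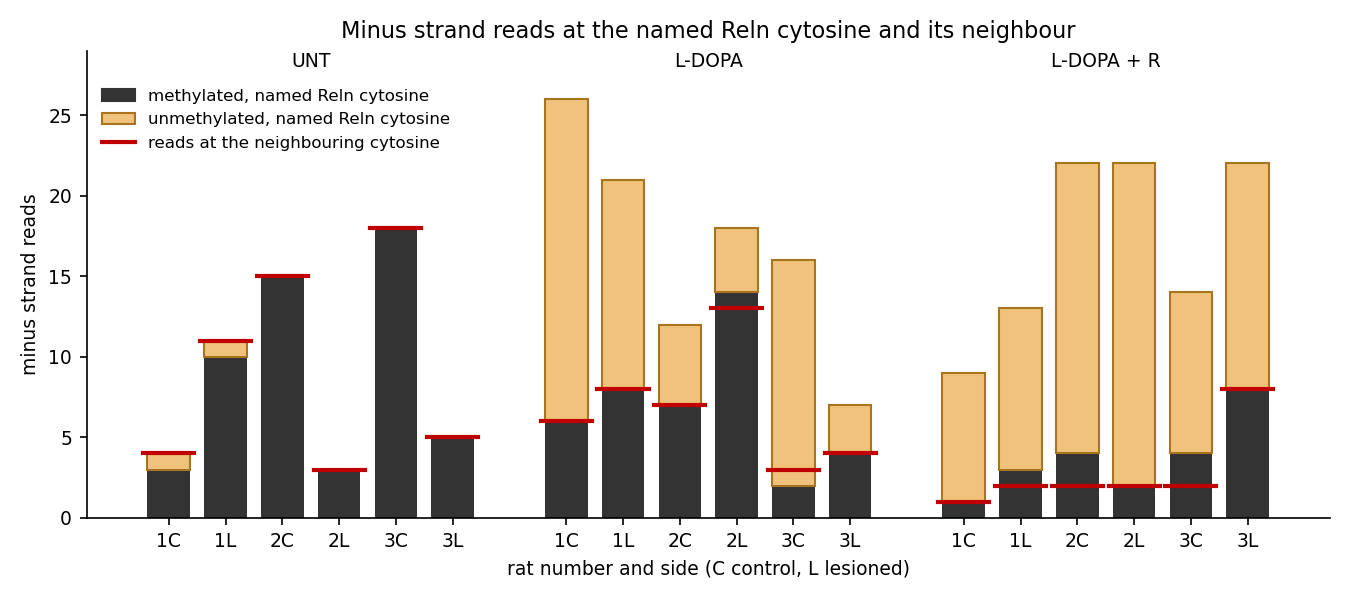
Minus strand reads at the named Reln cytosine in each striatum, split into methylated (dark) and unmethylated (light) reads. The red line marks the reads at the neighbouring cytosine 9 bases on. In the 6 UNT striata the line meets the top of the bar, and in the 12 treated striata it lies 3 to 20 reads below it.

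The minimum of 10 reads per cytosine decided some of the merged values. In the control striatum of L-DOPA + R rat 1 the 9 minus strand reads fell below the minimum and the merged CpG was at 100%. In the lesioned striatum of that rat the 9 plus strand reads fell below it and the CpG was at 23.1%. In the lesioned striatum of L-DOPA rat 3 the 7 minus strand reads were left out, and the CpG was again at 100%.

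At the named Dab1 CpG the merged values of UNT and treated rats lay further apart than at Reln, and those of the treated rats closer together. This order held for merged values with at least 10 reads per cytosine. With at least 20 reads, L-DOPA minus UNT was -46.7 points at Reln and -40.5 points at Dab1, and on the minus strand alone, with at least 10 reads, L-DOPA + R minus UNT was -75.1 and -64.5 points. The merged methylation level was 96.5 ± 2.07% in UNT, 59.6 ± 2.43% under L-DOPA and 56.8 ± 4.51% under L-DOPA + R (SD, n = 3 rats). The rats had 95.6, 98.8 and 94.96% in UNT, 59.3, 62.2 and 57.4% in L-DOPA, and 61.5, 52.6 and 56.3% in L-DOPA + R. As at Reln, the ranges of the treated groups overlapped each other and not that of UNT.

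The plus strand of the Dab1 CpG had 96.5 ± 1.46% of 217 reads methylated in UNT, 93.9 ± 6.38% of 132 reads under L-DOPA and 92.2 ± 1.13% of 124 reads under L-DOPA + R. The minus strand, at 124257818, had 96.1 ± 3.43% of 101 reads, 38.6 ± 4.15% of 213 reads and 31.8 ± 4.75% of 171 reads. The strands of a rat thus differed by 0.468 ± 2.27 points in UNT, 55.3 ± 10.2 points under L-DOPA and 60.4 ± 4.72 points under L-DOPA + R. In UNT the minus strand was methylated in 11 of 13, 22 of 22 and 15 of 17 reads on the control side and in 19 of 19, 11 of 11 and 19 of 19 on the lesioned side. The L-DOPA rats had 21 of 43, 9 of 24 and 10 of 40 methylated reads on the control side and 14 of 42, 13 of 30 and 15 of 34 on the lesioned side. The L-DOPA + R rats had 5 of 22, 9 of 30 and 12 of 43 on the control side and 14 of 29, 5 of 19 and 9 of 28 on the lesioned side. The lowest UNT striatum, at 84.6%, stood well above the highest treated one, at 48.8%.

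The Dab1 minus strand cytosine lies exactly 50 bases past another CpG cytosine of its strand. That CpG, at 124257867, was the third one of the windows called lower in both treated groups, at 87.1 ± 4.64% in UNT, 41.1 ± 3.63% under L-DOPA and 37.7 ± 3.49% under L-DOPA + R with the strands merged. Its minus strand, 50 bases before the named cytosine in reading direction, was at 87.1 ± 4.64%, 81.1 ± 9.55% and 73.5 ± 8.58%. Its plus strand, which lies 50 bases past the plus strand cytosine of the named CpG, had no read in any of the 6 UNT striata. In L-DOPA it had 136 reads with 4.72 ± 2.66% methylated, and in L-DOPA + R 124 reads with 2.86 ± 2.58%. The pair of CpGs thus mirrored each other, each with the low level on the strand for which it was the second cytosine. The next tested CpG, 191 bases before the named one at 124257626, was read on the plus strand alone and had 88.3 ± 6.08% in UNT, 90.6 ± 5.17% under L-DOPA and 93.4 ± 1.79% under L-DOPA + R.

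**Figure D3:**
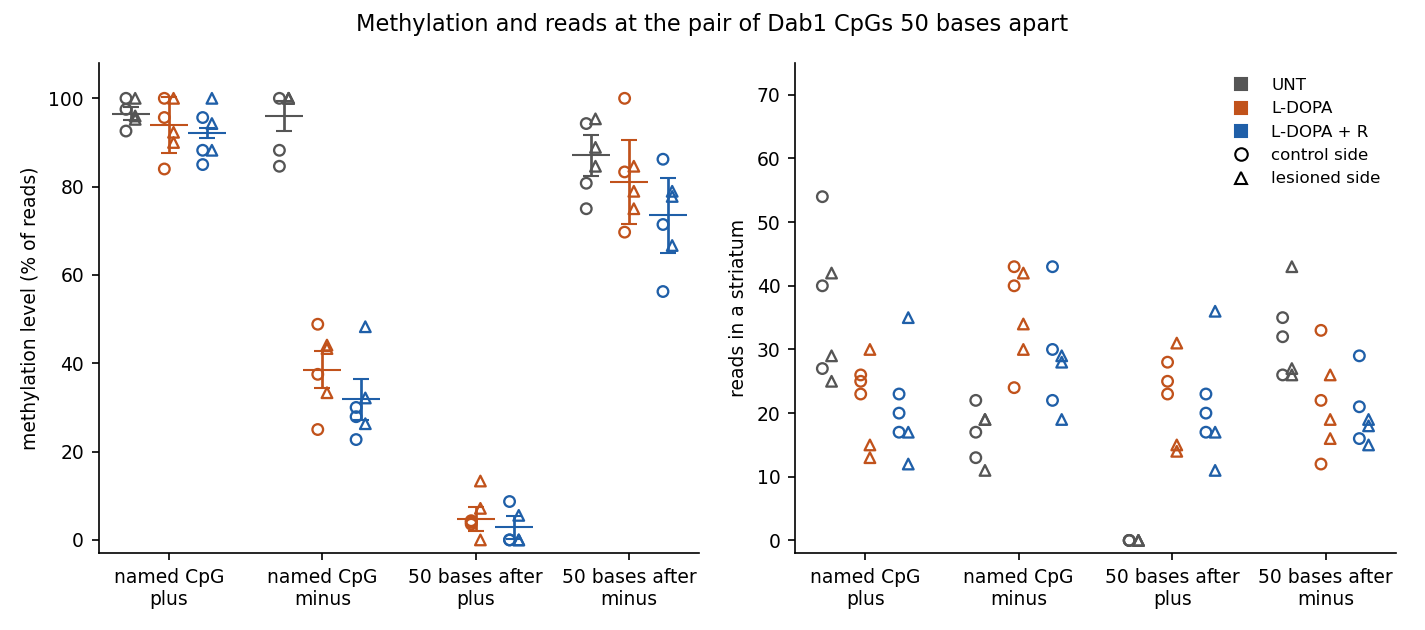
Left, methylation level (percent of reads) by strand at the named Dab1 CpG and at the CpG 50 bases after it; right, the reads behind each value. Symbols are striata and bars the mean ± SD of 3 rats. The plus strand of the second CpG was read 0 times in the UNT striata and 11 to 36 times in the treated ones, where it was at most 13.3% methylated.

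The same spacing was examined across the genome. The earlier cytosine was counted only if it had at least 10 reads in at least 1 striatum. Of 306411 cytosines kept in all 12 treated striata, 3565 (1.16%) had no read in any UNT striatum, and 2845 of these (79.8%) lay 50 bases past another cytosine of the same strand. The share of all 306411 cytosines at this spacing was not counted. Among 161108 CpGs with both strands kept, the plus strand was higher by 30 points or more in 0.871% in UNT, 1.04% under L-DOPA and 1.16% under L-DOPA + R. Among the 3523 CpGs with the minus strand alone 50 bases past a cytosine, as at the named Dab1 CpG, the shares were 0.199, 5.02 and 5.11%. When cytosines 50 bases past another one are left out, the named Dab1 CpG keeps its plus strand, on which L-DOPA and L-DOPA + R differed from UNT by -3.13 and -4.38 points, and the CpG after it keeps its minus strand, with -6.05 and -12.7 points. The Reln CpG keeps both strands. Single-end reads of 50 bases were stated for the libraries as a whole, and a read length or trimming by group was not given in the sources used here. The part of either in the differences at the Dab1 CpGs was not tested. No cytosine of the same strand with at least 10 reads in a striatum lay 46 to 50 bases before the Reln minus strand cytosine. Cytosines with fewer reads were not searched for.

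Across both windows, differentially methylated sites (DMS) were called at q under 0.01 with a logistic model per CpG and adjustment over all tested CpGs. In L-DOPA against UNT, 3 of 61 tested CpGs were called, the 2 named ones and the Dab1 CpG 50 bases after, all lower, against a background of 0.351% of 654563 CpGs called in either direction and 0.269% called lower. In L-DOPA + R against UNT the same 3 of 56 tested CpGs were called, again all lower, against 0.445% of 643889 CpGs in either direction and 0.361% lower. Since the windows were placed on 2 of these CpGs, nothing is read from these counts or from the calls of these CpGs. Both comparisons use the same UNT rats. The count in L-DOPA was 2, without Reln, when UNT rat 2 or UNT rat 3 was left out or the rat was the unit, and 3 without L-DOPA rat 1, with 9456468 in place of Reln. With an F test the counts were 2 and 1, again without Reln. Without cytosines 50 bases past a cytosine they were 1 and 1, the Reln CpG alone, and on the plus strand alone 0 and 0.

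The remaining members of the windows were not called, and 69 and 74 of the 130 members could not be tested in these comparisons because too few striata had 10 reads. In L-DOPA, 36 of the 58 uncalled CpGs were lower (62.1%, against 50.04% of all tested CpGs) and 22 higher, with a median difference of -1.07 points against -0.0061 over all tested CpGs. In L-DOPA + R, 39 of 53 were lower (73.6%, against 52.8%) and 14 higher, with a median of -2.30 points against -0.26 over all. An unadjusted p under 0.05 was reached by 5 of these members in each comparison, against 7.37 and 9.52% of all tested CpGs. The shares of lower CpGs and the medians were not matched for the level in UNT. Of all CpGs measured in every group 42.1% were under 20% in UNT, against 0 of 31 uncalled Reln and 1 of 19 uncalled Dab1 CpGs. No loss beyond that of other CpGs is read from them. Over the 17 Reln CpGs kept in all 18 striata the mean level was 80.03 ± 1.27% in UNT, 77.0 ± 1.39% under L-DOPA and 76.4 ± 2.31% under L-DOPA + R. Without the named CpG it was 78.9 ± 1.38, 77.2 ± 1.62 and 77.4 ± 2.09%, and the groups overlapped. The 13 Dab1 CpGs had means of 74.8 ± 1.92, 66.7 ± 3.30 and 64.7 ± 2.54%, and without the called pair 71.7 ± 2.56, 69.6 ± 3.74 and 67.8 ± 3.01%. Over all 294959 CpGs kept in all striata the means were 49.1 ± 0.109, 48.4 ± 0.395 and 47.5 ± 0.604%.

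**Figure D4:**
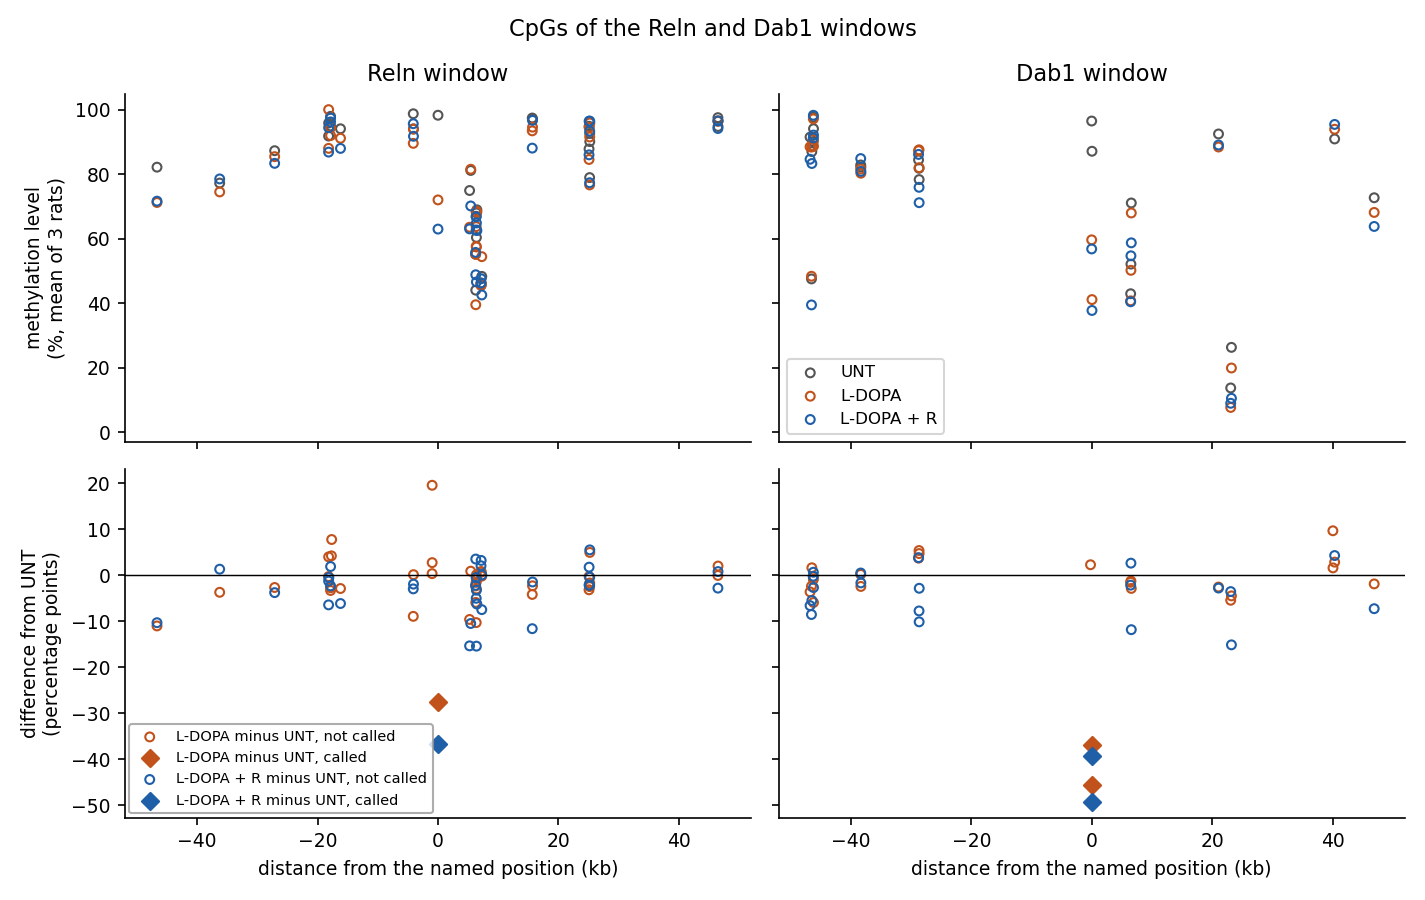
Top, methylation level of CpGs kept in at least 4 striata of every group by distance from the named position. Each level is the mean of the 2 or 3 rats in which the CpG was kept. Bottom, difference of each treated group from UNT for the CpGs tested in that comparison. Diamonds are CpGs called at q under 0.01. The 3 called CpGs have differences of -49.3 to -27.5 points, and the next largest difference in either direction is 19.6 points.

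Outside the called CpGs, most members of both windows were highly methylated. Of the other CpGs measured in every group, 18 of 31 in the Reln window and 11 of 19 in the Dab1 window were over 80% in UNT, against 36.1% of 556340 CpGs overall. Under 20% were 0 and 1 of them, against 42.1% overall. The CpGs fell into 13 clusters around Reln and 9 around Dab1, separated by more than 500 bases. A partly methylated stretch of the Reln window, 7 CpGs between 9463687 and 9463898, was at 63.7 ± 4.77% in UNT, 59.6 ± 1.91% under L-DOPA and 57.9 ± 5.24% under L-DOPA + R. The 3 CpGs after it, from 9464587 to 9464711, were at 46.2 ± 7.84, 46.4 ± 6.27 and 45.8 ± 10.2%. In the Dab1 window the 3 CpGs from 124264290 to 124264396 were at 49.9 ± 4.33, 48.4 ± 3.48 and 48.9 ± 0.999%. The lowest cluster, at 124280909 and 124281030, was at 20.8 ± 5.38% in UNT, 13.7 ± 2.60% under L-DOPA and 10.01 ± 2.93% under L-DOPA + R.

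Among CpGs that were not called, the largest differences in L-DOPA against UNT around Reln were 19.6 points at 9456468, -11.01 points at 9410768 and -10.3 points at 9463789. Around Dab1 they were 9.67 points at 124297881, -5.92 points at 124211612 and -5.43 points at 124280909. For L-DOPA + R they were -15.4 points at 9463821, -15.3 points at 9462688 and -11.6 points at 9473095 around Reln. Around Dab1 they were -15.1 points at 124281030, -11.8 points at 124264396 and -10.1 points at 124229160. The smallest q among these 12 differences were 0.0739 at 9473095, which had 97.4 ± 1.31% in UNT and 88.1 ± 7.52% in L-DOPA + R, and 0.0950 at 124281030, which had 26.3 ± 10.5% and 10.5 ± 2.97%.

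The CpG 971 bases before the named Reln CpG, at 9456468, split the L-DOPA rats. On the minus strand, the one on which it was read, it had 0 methylated of 103 reads in UNT, which allows a share of up to 2.91% (3 of 103 reads, counting error only). L-DOPA rat 1 had 0%, rat 2 38.5% and rat 3 28.6%, and the L-DOPA + R rats 13.3, 0 and 0%. Its q in L-DOPA against UNT was 0.230, and without L-DOPA rat 1 it was called. Both of the following Reln positions separated the same rats. At 9457511, 72 bases after the named CpG, minus strand reads were listed in the 4 striata of L-DOPA rats 2 and 3 alone, 44 reads with 42 methylated. The second position that the study annotated to Reln lies outside the window, 116984 bases after the named CpG, and was read on the minus strand at 9574424. It had 93.5 ± 2.98% in UNT and 90.2 ± 2.15% in L-DOPA + R, and 86.4, 54.2 and 53.2% in the L-DOPA rats. These positions were noticed after their values were seen, apart from the last, and no test was made of the split.

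Riluzole was compared with L-DOPA alone. The choice of the positions had not used this contrast, but it had used values of the treated rats that enter it. The tests at the named CpGs are therefore not independent of that choice. The named Reln CpG differed by -9.04 points in L-DOPA + R (exact permutation test over 3 and 3 rats, two-sided p = 0.4, adjusted over 4 tests p = 0.533). The Dab1 CpG differed by -2.82 points (exact permutation p = 0.4, adjusted p = 0.533). With 3 rats against 3 this test cannot go below 0.1. The Reln value lay between -16.9 and -2.19 points with a rat left out, at -14.1 points on the minus strand with at least 10 reads (-20.2 points with all reads) and at -3.31 points with at least 20 reads. The Dab1 value lay between -5.18 and -0.689 points, at -6.77 points on the minus strand and at -8.56 points with at least 20 reads. None of the 53 members tested across both windows was called, against 0.0477% of 568416 CpGs, with 3 members at an unadjusted p under 0.05 (7.09% of all tested CpGs were) and a smallest q of 0.463. The median difference of the members was -0.22 points.

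The lesioned and the control striatum were compared within each rat. At the Reln CpG the lesioned side differed by -2.62 ± 31.5 points over 9 rats, with 6 rats higher and 2 lower (exact sign-flip permutation test, two-sided p = 0.875, adjusted p = 0.875). The 3 UNT rats had differences of 0.842, 0 and 1.61 points, the L-DOPA rats 17.5, 6.43 and 37.8 points, and the L-DOPA + R rats -76.9, -16.2 and 5.33 points. The value of -76.9 points set 18 plus strand reads of the control side against 13 minus strand reads of the lesioned side, since the other strand was below 10 reads in each. The 37.8 points of L-DOPA rat 3 set 17 plus strand reads of the lesioned side against both strands of the control side for the same reason. The mean was 6.67 points without the former rat (exact permutation p = 0.266) and -7.68 points without the latter (exact permutation p = 0.75), and with all reads of both strands it was 2.46 points over 9 rats (exact permutation p = 0.625). At the Dab1 CpG the difference was 3.28 ± 8.41 points over 9 rats, with 6 rats higher and 3 lower (exact sign-flip permutation p = 0.297, adjusted p = 0.533), and with at least 20 reads per cytosine it was -3.48 points over 8 rats (exact permutation p = 0.476). The smallest p this test can give with 9 rats is 0.0039.

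**Figure D5:**
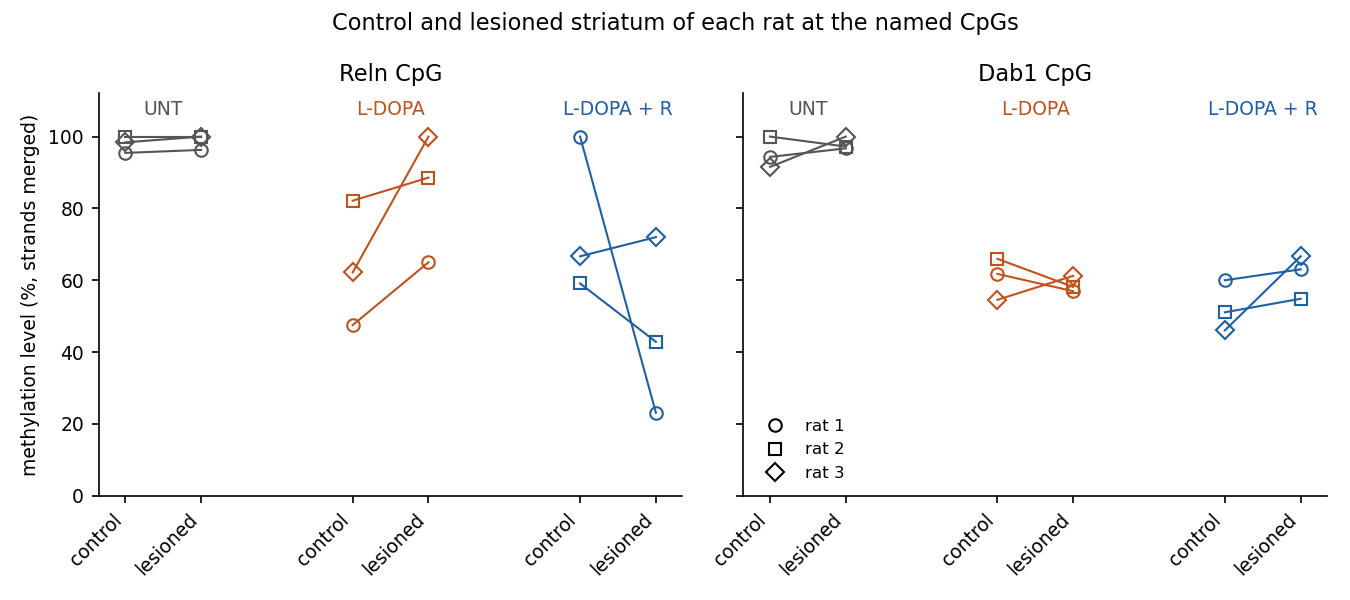
Methylation level (strands merged, at least 10 reads per cytosine) of the named CpGs in the control and the lesioned striatum of each rat, joined by a line. The Dab1 lines rise or fall by at most 20.6 points, and the Reln line of L-DOPA + R rat 1 falls by 76.9 points.

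Within the groups, no member was called between the sides. In UNT 65 members were tested (background 0.00193% of 724400), in L-DOPA 52 (0.00101% of 395600) and in L-DOPA + R 32 (0.00176% of 397652). An unadjusted p under 0.05 was found for 6, 1 and 2 members, against 6.45, 5.40 and 6.29% of all tested CpGs, and the smallest q were 0.650, 0.562 and 0.474. The F test of the same model gave 0 calls in these comparisons and in L-DOPA + R against L-DOPA.

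The CpGs whose level ran most alike with that of each named CpG were sought among 145614 CpGs kept in all 18 striata with an SD over 5 points. The points share their libraries, depth and treatment groups. For Reln the highest Pearson r were 0.867 (chr8:47641104), 0.857 (chr1:99679374) and 0.850 (chr2:152601236), none of them 50 bases past a cytosine. For Dab1 they were 0.984 (chr8:110215282), 0.978 (chr14:50745106) and 0.973 (chr6:102480066), all with a strand 50 bases past a cytosine, as had 2.29% of the candidates. The 2 named CpGs correlated with each other with r = 0.631 over the 18 striata. For Reln, the Dab1 CpG ranked 1312 among the candidates, and for Dab1 the Reln CpG ranked 2581. Both were chosen from comparisons of the same treated and untreated rats, so nothing is read from this r.

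Among 28 genes listed for the pathway, the study's own table of sites for L-DOPA against UNT has positions in Fyn, App, Cdh2 and Clasp2 besides Reln and Dab1. These were chosen on the same rats, so their values are a description, and the share of all genes with such a position was not analysed here. The kinase gene Fyn had, at chr20:44480303 on the plus strand, 60.4 ± 5.93% in UNT, 82.4 ± 4.99% under L-DOPA and 64.6 ± 16.2% under L-DOPA + R. Its minus strand was thinly read and was at 51.5 ± 22.8% of 53 reads in UNT and 41.7 ± 22.0% of 13 reads under L-DOPA + R, with 1 of 6 reads methylated under L-DOPA. App, whose product binds to Reelin and Dab1, had 72.9 ± 7.59, 41.2 ± 11.7 and 47.2 ± 12.1% at chr11:24594435 on the minus strand. Cdh2, the gene of N-cadherin, had 96.1 ± 0.775, 76.7 ± 6.25 and 84.2 ± 3.23% at chr18:8169343 on the plus strand. Clasp2 codes for a microtubule-binding protein. At chr8:122162551 its plus strand had 42.0 ± 13.5, 45.1 ± 27.6 and 39.2 ± 14.2%, from 83, 33 and 45 reads. Its minus strand, 50 bases past a cytosine, had no read in UNT, 75 reads with 1.33% methylated in L-DOPA and 85 reads with 1.18% in L-DOPA + R.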

How the data were processed

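RRBS libraries of 18 striata, a pair from each of 9 rats, were analysed. According to the study's methods, single-end reads of 50 bases were checked with FastQC 0.10.0, trimmed with Trim Galore 0.4.0 (RRBS option), mapped to rn6 with Bismark 0.14.3 and read into methylKit 1.8.0. The authors deposited the count of reads (coverage) per CpG cytosine and strand, without a minimum. The percent methylated and unmethylated were deposited by the authors with these counts, and whole reads were rebuilt from both (largest deviation from a whole read 0.24).

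Python 3.11.15 with numpy 2.4.6, pandas 2.3.3, scipy 1.17.1 and matplotlib was used. Windows were centred on chr4:9457439 (Reln) and chr5:124257817 (Dab1) of rn6. A cytosine entered with 10 or more reads in a striatum, and its CpG's strands were added up. A logistic model with overdispersion (never under 1) was fitted to each CpG, tested with a chi-square test and adjusted over all tested CpGs (Benjamini-Hochberg, q under 0.01), after the study's own design. Between treatments each striatum was a sample and a CpG had to be present in 4 or more of 6 striata per group; between sides it had to be present in all 6. The striata of a rat depend on each other, so these fits hold more samples than animals. The method was tested on simulated data. Levels of single strands use all reads, with no minimum, whereas fits and differences on a strand alone keep the minimum of 10 reads unless all reads are named; SDs are over rats with the reads of both striata added up. The median coverage of kept cytosines was 15 to 23 reads, so a single striatum gives a level in steps of several points.

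Both striata of each of 3 rats per group were used by the study, and the 2 striata with one replicate number were taken as those of 1 rat, which the labels do not state in words. Their deviations from the group means correlated with a mean r of 0.0645 (0.0336 to 0.112, 9 pairs), against -0.0322 for different numbers of a treatment. Over CpGs whose control striata spanned at least 60 points (196 to 546 CpGs), r was 0.519 to 0.964 for the same number and at most 0.190 for another, and 9 of 9 lesioned striata correlated best with their own number; this check was added after seeing the data.

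The windows, positions and gene list were chosen with earlier results of these data known. The text names both positions, tested CpGs within 300 bases, called CpGs, the 3 largest uncalled differences per window and comparison, the 3 most similar CpGs per position, and positions the study annotated to genes of the list. The authors' own fold and p columns in the supplementary tables were not used. Alternatives were another minimum, an F test, no overdispersion, single strands, cytosines left out, other units and each rat left out. Gene bodies of the other pathway genes were not analysed here, since no rn6 annotation or sequence was used.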

Additional observations from a re-analysis of the deposited data

Results flagged for a closer look

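At the named Reln CpG, the plus strand of the lesioned striatum of L-DOPA + R rat 2 stood apart from the other kept striata of its group, with 80% of 20 reads methylated as the lowest of 5. At the named Dab1 CpG, the minus strand of the lesioned striatum of L-DOPA + R rat 1 stood apart with 48.3% of 29 reads, the highest of 6. By chance alone about 1 in 20 groups has such a sample.

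Reads appeared at 2 cytosines of the Reln window at which no UNT striatum had any. The plus strand cytosine at 9410882, 50 bases past another one, had up to 17 reads in a striatum, and the CpG at 9457511 up to 14 on its minus strand. Both entered no comparison.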

How the results depend on the processing

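With the F test, 2 CpGs of the windows were called in L-DOPA against UNT and 1 in L-DOPA + R against UNT, the named Dab1 CpG. Without cytosines 50 bases past a cytosine, and without those 46 to 50 bases past one, 1 CpG was called in each comparison, the Reln one. The plus strand alone gave 0 and 0 calls, and the minus strand alone 1 and 1, the named Dab1 CpG, since too few UNT striata had 10 minus strand reads at Reln. On the plus strand alone, with at least 10 reads, the differences from UNT were -0.0451 and -1.97 points at Reln and -3.13 and -4.38 points at Dab1; on the minus strand alone they were -57.9 and -75.1 and -57.5 and -64.5 points. With all reads the Reln differences were -0.0451 and -2.55 points on the plus strand and -55.4 and -74.9 points on the minus strand, and those of Dab1 were the same. A minimum of 20 reads moved L-DOPA minus UNT at Reln from -27.5 to -46.7 points and left the Reln CpG untested against UNT in both treated groups, with the Dab1 pair called. Without the overdispersion correction, 9456468 was called in addition in L-DOPA. With the rat as the unit, the Reln CpG was not called in L-DOPA and was called in L-DOPA + R. It was not called on the lesioned side alone in L-DOPA, nor on either side alone in L-DOPA + R. Since the named CpGs were chosen on these comparisons, their calls are a description of the settings.

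Leaving out 1 rat gave 2 to 4 calls in L-DOPA against UNT and 3 to 4 in L-DOPA + R against UNT. The Reln call in L-DOPA was lost without UNT rat 2, UNT rat 3 or L-DOPA rat 1; the last of these gave a call at 9456468. Without UNT rat 1, 9453333 was called in addition, and without UNT rat 3, 124281030 was in L-DOPA + R. In the other comparisons leaving out a rat gave 0 calls. With the rat as replicate block, 0 CpGs were called between the sides in each group, as without the block.

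The lesioned side at Reln turned from -2.62 to 0.655 points with a minimum of 20 reads (5 rats), 8.29 on the minus strand alone (4 rats) and 2.46 with all reads, and leaving out a rat gave -7.68 to 6.67 points. At Dab1 it turned from 3.28 to -3.48 points with a minimum of 20 reads (8 rats), and leaving out a rat gave 1.11 to 4.67 points. L-DOPA + R minus L-DOPA, with a rat left out, lay between -16.9 and -2.19 points at Reln and between -5.18 and -0.689 points at Dab1. It was -1.15 and -1.73 points on the plus strand with at least 10 reads (Reln -2.39 points with all reads); with a minimum of 20 reads, Reln had values in 4 rats. The use of all reads, and the values at 124257867, were chosen after seeing the data. Depth limits the Reln minus strand, with 3 to 18 reads per UNT striatum, and its neighbouring cytosine, with 1 to 8 reads per L-DOPA + R striatum; intervals and SDs of single striata cover few reads. Of 17 alternatives each, 4 called exactly the same 3 CpGs in L-DOPA against UNT and 8 did in L-DOPA + R against UNT; in the other comparisons, every alternative gave 0 calls.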
